A study of Rattus norvegicus with 12 samples.

Results

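The genes for the proteins of the cytosolic ribosome were measured in the embryonic ganglionic eminences of BACHD rats, which carry full-length human mutant huntingtin. Members were the probe sets with exactly 1 annotated gene symbol that is Rpsa, Rplp0, Rplp1 or Rplp2, or Rpl or Rps followed by a number and at most the letter a, x or y. This gave 249 of 29214 probe sets and 68 of 14506 named genes, 42 of the large and 26 of the small subunit. Names marked as like genes or pseudogenes, the Rps6k kinases, the paralog Rps4y2 and the binding protein Rps19bp1 were left out. A more literal reading of the names keeps 5 of these genes and gives 73. Each gene is described by its probe set of highest mean intensity, and all of its probe sets are compared further on.

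RNA came from the whole ganglionic eminences (the medial and lateral swellings of the ventral forebrain) of 12 rat embryos at embryonic day 14, 1 embryo per Affymetrix Rat Gene ST array. The 6 homozygous embryos carried BACHD, a bacterial artificial chromosome transgene with the whole human mutant huntingtin gene and 96 CAG repeats, and the 6 others were wild type (WT). The 12 embryos came from 3 transgenic dams dissected on 1 day. Which dam an embryo came from, and its sex, are not in the labels, so p-values treat embryos of a litter as independent. The transgene is driven by the human gene's own regulatory sequence, and the rat's own huntingtin gene is retained.

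The ribosome of the cytosol reads messenger RNA and makes protein. Its small subunit decodes the message and its large subunit joins the amino acids, and the proteins of each are needed in balanced amounts. Their messenger RNAs are among the most abundant in dividing cells and mostly begin with a C and a run of pyrimidines, the 5′ terminal oligopyrimidine (TOP) tract, through which mTOR signalling and the RNA-binding protein Larp1 control their translation. The germinal zones of the ganglionic eminences hold many dividing progenitors, a cell state with a high demand for ribosomes.

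The start of the gene carries that tract, so the stretch around the annotated start is shown for the stalk genes, for the genes of smallest p in each direction, and for Rpl36 and Rps9. Each runs from 35 bases before to 20 bases after the start (RefSeq, GRCr8, gene strand). Capitals mark a run of at least 5 pyrimidines that begins with C within 10 bases of the start.
Rplp2 (chr1:205975886-205975940, + strand): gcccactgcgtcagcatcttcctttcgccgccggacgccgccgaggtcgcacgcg
Rplp1 (chr8:71290853-71290907, - strand): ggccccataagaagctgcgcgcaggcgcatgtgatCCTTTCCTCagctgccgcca
Rplp0 (chr12:46718371-46718425, - strand): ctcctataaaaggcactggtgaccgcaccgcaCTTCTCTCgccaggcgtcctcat
Rpl41 (chr7:1563478-1563532, - strand): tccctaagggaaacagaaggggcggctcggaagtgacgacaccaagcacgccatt
Rps21 (chr3:187724003-187724057, + strand): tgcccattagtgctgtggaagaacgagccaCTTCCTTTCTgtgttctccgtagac
Rpl37a (chr9:81748056-81748110, + strand): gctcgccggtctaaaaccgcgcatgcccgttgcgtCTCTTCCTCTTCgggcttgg
Rpl13 (chr19:68062479-68062533, + strand): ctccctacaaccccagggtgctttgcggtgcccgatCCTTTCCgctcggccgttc
Rpl3 (chr7:113507971-113508025, - strand): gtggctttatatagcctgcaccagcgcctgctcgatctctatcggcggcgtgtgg
Rps9 (chr1:74430418-74430472, - strand): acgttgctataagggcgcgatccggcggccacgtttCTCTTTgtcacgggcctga
Rpl36 (chr9:1533745-1533799, + strand): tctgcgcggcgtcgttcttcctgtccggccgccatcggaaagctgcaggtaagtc
Of these 10 stretches, 6 hold such a run and those of Rplp2, Rpl41, Rpl3 and Rpl36 do not.

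RefSeq start regions were found for 58 of the 68 genes, Rps25 and Rpl32 being among those without one. A pyrimidine run of this kind lay at the start of 44 of the 58 (75.9%), against 27.8% of all 33469 RefSeq start regions. Among motifs sought on both strands from 250 bases before to 50 after the start, CCGGAAG was in 18 of the 58 (31.0%, against 8.75% of all regions) and CTTTCC in 28 (48.3% against 26.4%). GGGCGG was in 33 (56.9% against 33.1%), AAGATGG in 8 (13.8% against 7.01%), CACGTG in 5 (8.62% against 6.42%) and TATAAA in 6 (10.3% against 14.2%). CTTTCC can itself lie inside the pyrimidine run. The genes with a run had 22 differences above and 22 below 0 between the genotypes, with a median of 0.00063 on the log2 scale, and the 14 without had 8 above and 6 below, with a median of 0.0039. A match describes the letters in this window only, and annotated starts can be several bases from the true one.

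The array medians lay between 7.67 and 7.71 in WT and between 7.69 and 7.76 in homozygous embryos, on the log2 scale of all values given here. WT 1 and WT 2 stood apart from the other WT arrays: in 40.6% of all genes, and in 35 of the 68 ribosomal protein genes (51.5%), both lay above or both lay below all of WT 3 to WT 6. Where a member's difference given below moved by more than 1.5 times or gained a call without these arrays, both values are given. These arrays were left out with their values known. Calls without them therefore describe the values, and their adjusted p does not hold its stated level. Of 12 markers of the ganglionic eminence (such as Dlx1, Gad1 and Nkx2-1), 7 were measured, and all 7 were above the array median on all 12 arrays. Of the ribosomal protein genes, 67 of 68 were above it on all arrays; the exception was Rps27, read by 1 dim probe set between 6.46 and 7.002 and chosen for naming after its values were seen.

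Most ribosomal protein genes differed little between genotypes, with a few small differences in each direction. The median difference, homozygous minus WT, was 0.0066 over the 68 genes, with 38 above and 30 below 0, while it was 0.03 over all 29214 probe sets and 0.02 over all 14506 genes. In the fit with limma, 2 genes passed an adjusted p of 0.05, Rplp2 higher and Rpl41 lower. That is 2.94% of the members, beside 0.424% of all probe sets and 0.469% of all genes (0.200% higher and 0.269% lower). At an unadjusted p under 0.05 there were 10 higher and 15 lower, 36.8% of the members beside 15.1% of all genes (9.18% higher and 5.93% lower). Ribosomal protein genes are bright, and 60 of them had a mean of 11 or more. Among the 1745 genes with a mean of 11 or more, 21.5% had an unadjusted p under 0.05 and 1.32% passed. The median difference was -0.0005 over these 1745 genes and 0.0131 over the 60 members at that level. Within-group spread was also lower for the members, with a median SD of 0.0573, than for all genes, at 0.0885, and was 0.0524 over the bright genes. In 9 of the 68 genes (13.2%) the 2 genotypes did not overlap, 4 higher and 5 lower in homozygous embryos. The share was 2.20% over all genes (1.25% higher and 0.944% lower) and 5.67% over the bright ones. With each array centred on its own median, which lowers the median over all probe sets to -0.0085, 5 members were higher and 22 lower at an unadjusted p under 0.05, and 0 higher and 6 lower passed. Over all 29214 probe sets, 302 passed with this centring, beside 124 without it. The share of all genes at that unadjusted level was not counted with centred arrays.

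**Figure D1:**
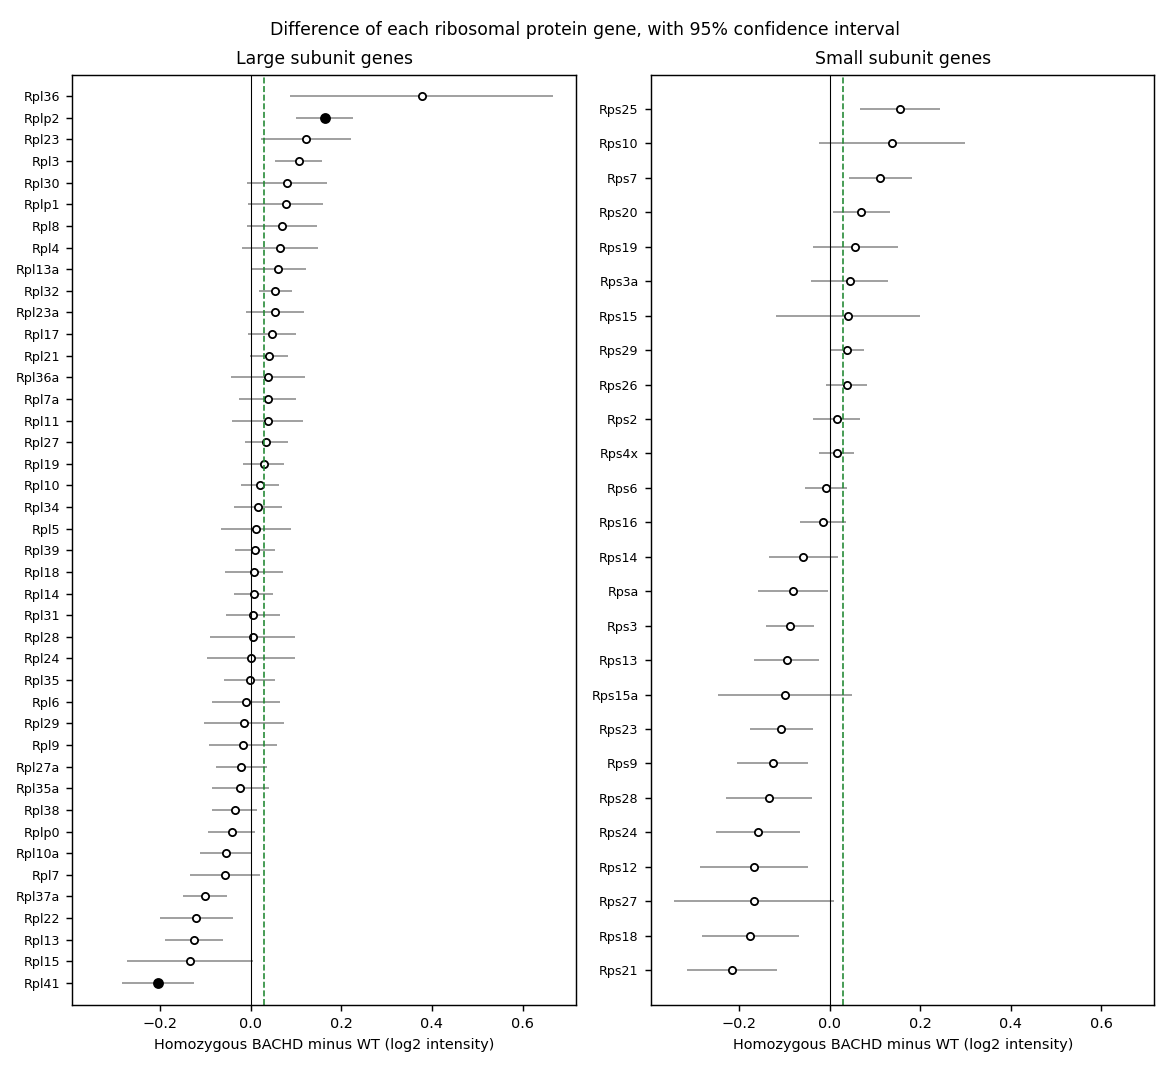
Difference in log2 intensity (homozygous minus WT, x axis) of the 42 large-subunit and 26 small-subunit genes, 1 row per gene, with 95% confidence intervals (6 embryos per genotype). Filled points passed an adjusted p of 0.05 (Rplp2 and Rpl41), and the dashed line is the median of all probe sets, 0.03; most points lie within 0.1 of 0 and more small-subunit genes extend to the left.

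The stalk of the large subunit is made of Rplp0, which anchors it, and of the acidic proteins Rplp1 and Rplp2, which recruit and activate the elongation factors. Rplp2 was the ribosomal protein gene with the smallest p. Its log2 intensity ran from 12.86 through a median of 12.91 to 13.02 in WT embryos and from 13.05 through 13.08 to 13.17 in homozygous embryos. Every homozygous embryo lay above every WT embryo, though the gap between the nearest embryos was narrow. The difference was 0.16 ± 0.029 (log2, SE, n = 6 per group), 1.12-fold, with an adjusted p of 0.0345 in limma, and its other 2 probe sets passed as well, at 0.18 and 0.16. It no longer passed without any single array other than WT 2 or WT 3 (0.0506 to 0.0936 in those cases). It did not pass after median centring of arrays (0.0848), when the fit had no intensity trend (0.103) or with the difference between bright and dim probe sets as a covariate (0.0721). Rplp1, its partner, ranged from 12.03 to 12.27 in WT and from 12.23 to 12.30 in homozygous embryos. The groups overlapped and the difference of 0.08 ± 0.039 did not pass (adjusted p = 0.363 in limma). WT 1 and WT 2 were its lowest embryos, at 12.03 and 12.08, and the difference was 0.05 without WT 1 alone and 0.02 without both. Rplp0 stood at -0.04 ± 0.024, with a 95% confidence interval from -0.09 to 0.01, and did not pass either. Of the 3 stalk genes, then, Rplp2 alone was called; whether its difference exceeds that of Rplp1 or Rplp0 was not tested.

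Rpl41 encodes a very short, basic peptide at the interface of the subunits. Its log2 intensity ran from 12.77 through a median of 12.83 to 12.97 in WT and from 12.58 through 12.66 to 12.73 in homozygous embryos. All homozygous values lay below all WT values. The difference of -0.20 ± 0.037 (SE, n = 6 per group), 13.2% lower, had an adjusted p of 0.0370 in limma. A further bright probe set also passed, at -0.23, and the last, with a mean of 7.21, stood at -0.13 with overlapping groups. Rpl41 no longer passed without any single array other than WT 1 or WT 3 (0.0508 to 0.0936 in those cases), with the replicate number as a block (0.0694), without an intensity trend (0.0965) or with the bright and dim covariate (0.0967).

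The other large-subunit genes without overlap did not pass over all probe sets. Rpl3, next to the site of peptide bond formation, ranged from 12.32 to 12.42 in WT and from 12.43 to 12.51 in homozygous embryos, a difference of 0.11 ± 0.024 (adjusted p = 0.0770 in limma). Without WT 1 and WT 2 the Rpl3 difference was again 0.11 ± 0.024 and passed (0.0381). Rpl32 had the smallest spread of the members, with a within-group SD of 0.0202. It ranged from 13.15 to 13.21 in WT and from 13.22 to 13.25 in homozygous embryos, a difference of 0.05 ± 0.017. In the other direction, the zinc-binding protein gene Rpl37a ranged from 12.55 to 12.65 in WT and from 12.46 to 12.54 in homozygous embryos. Its difference was -0.10 ± 0.023 (adjusted p = 0.0670 in limma). Rpl13 ranged from 11.32 to 11.45 in WT and from 11.17 to 11.30 in homozygous embryos, a difference of -0.13 ± 0.030, and its 7 probe sets read between -0.14 and -0.12. Without WT 1 and WT 2 Rpl13 stood at -0.14 ± 0.031 and passed (adjusted p = 0.0371 in limma). In these 4 genes the groups were separate by the brightest probe set, but none had an adjusted p under 0.05 with all arrays.

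**Figure D2:**
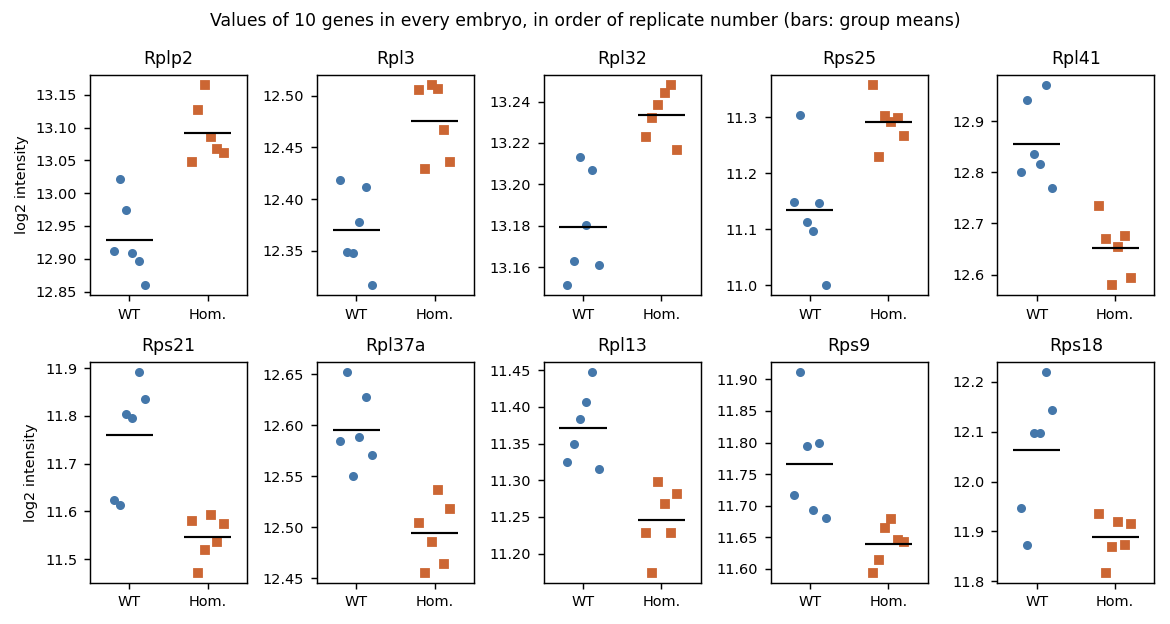
Log2 intensity (y axis, a separate scale for each gene) of 10 ribosomal protein genes in each of the 6 WT (circles) and 6 homozygous (squares) embryos, ordered by replicate number, with bars at the group means. The groups do not overlap for Rplp2, Rpl3, Rpl32, Rpl41, Rps21, Rpl37a, Rpl13 and Rps9, and overlap for Rps25 and Rps18; the WT values of Rps21 and Rps18 fall into a low pair, WT 1 and WT 2, and 4 higher embryos.

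Rpl36 had the largest difference of the set, 0.38 ± 0.135, and the largest within-group spread, an SD of 0.277. WT 1 read 12.12 and WT 2 read 12.20, the other WT embryos 12.88 to 12.95, and the homozygous embryos 12.99 to 13.09. The homozygous embryos thus lay above all WT embryos, but most of the mean difference came from 2 WT arrays. The adjusted p was 0.224 in limma with all arrays. Without WT 1 and WT 2 the difference was 0.13 ± 0.020 (n = 4 and 6) and passed, with an adjusted p of 0.0122 in limma. Leaving out the 2 deviating arrays itself narrows the WT spread, so this p does not hold its stated level. All 10 probe sets of Rpl36 showed the difference, from 0.38 to 0.44.

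The low reading of WT 1 and WT 2 in Rpl36 was shared, at a smaller scale, by genes of both subunits. Both arrays lay below all other WT embryos in 22 of the 68 genes and above them in 13. The lower ones included Rplp1 and Rpl23 of the large subunit and several genes of the small subunit. Rps18, a protein of the head of the subunit, read 11.95 in WT 1 and 11.87 in WT 2, 12.10 to 12.22 in the other WT embryos and 11.82 to 11.94 in homozygous embryos. Its difference was -0.17 ± 0.050 with all arrays, which did not pass (adjusted p = 0.134 in limma), and -0.25 ± 0.030 without WT 1 and WT 2, which did (0.00339). Rps21 read 11.62 and 11.61 in these arrays, 11.80 to 11.89 in the other WT embryos and 11.47 to 11.59 in homozygous embryos. It stood at -0.22 ± 0.046 with all arrays (adjusted p = 0.0573) and at -0.29 ± 0.028 without them (0.00196). Rps12 and Rps15a, chosen after their values were seen, also read low in these arrays. They differed by -0.17 and -0.10 with all arrays and by -0.25 and -0.21 without these arrays, where both passed (0.00562 and 0.0173). Rps15, chosen likewise, went the other way. It read 12.58 and 12.60 in WT 1 and WT 2, 12.14 to 12.30 in the other WT embryos and 12.32 to 12.40 in homozygous embryos, so its difference of 0.04 ± 0.074 became 0.17 ± 0.033 without them (adjusted p = 0.0262).

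In all, 12 of the 68 genes passed without WT 1 and WT 2, 6 higher and 6 lower, which is 17.6% beside 1.99% of all probe sets and 2.50% of all genes. The share over genes with a mean of 11 or more, the level of most members, was not counted without these arrays. With all arrays that share was 1.32%, beside 0.469% of all genes. They were Rplp2, Rpl3, Rpl28, Rpl36, Rps15 and Rps25 among the higher, and Rpl13, Rpl41, Rps12, Rps15a, Rps18 and Rps21 among the lower. Rpl28, named after its values were seen, read 13.46 and 13.48 in WT 1 and WT 2 and 13.23 to 13.25 in the other WT embryos. Its difference was 0.0040 ± 0.044 with all arrays and 0.08 ± 0.015 without these arrays. Leaving out these arrays was chosen with their values known, so the adjusted p-values without them do not hold their stated level. Whether the embryos shared a dam or a sex was not tested.

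**Figure D3:**
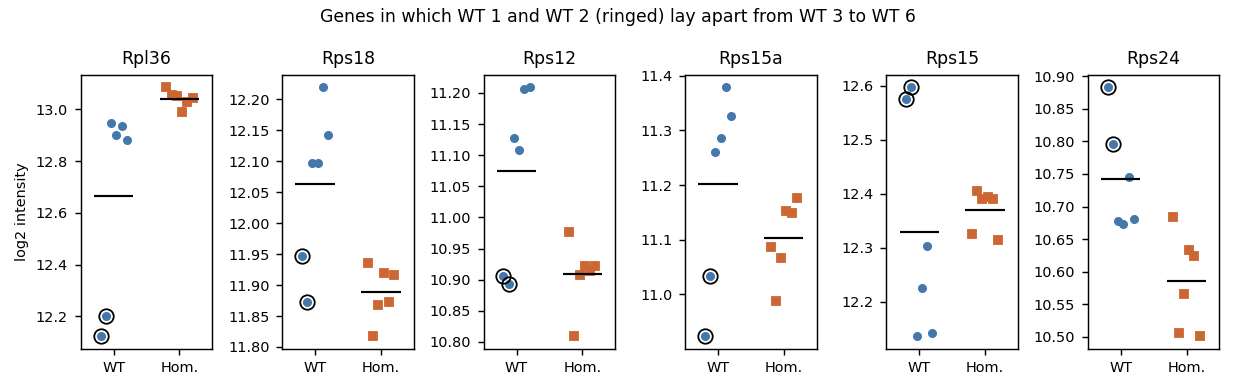
Log2 intensity (y axis, separate scales) of 6 genes in WT (circles) and homozygous (squares) embryos, with bars at the means of all 6 embryos and rings around WT 1 and WT 2. The ringed values lie below the other WT embryos for Rpl36, Rps18, Rps12 and Rps15a and above them for Rps15 and Rps24.

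The medians of the subunits lay 0.05 apart. The median difference was 0.0097 over the 42 large-subunit genes and -0.04 over the 26 small-subunit genes. Of the large-subunit genes 27 were above and 15 below 0; of the small-subunit genes 11 were above and 15 below. At an unadjusted p under 0.05, 6 large-subunit genes were higher and 5 lower (26.2% in all), while 4 small-subunit genes were higher and 10 lower (53.8%). The share was 15.1% over all genes and 21.5% over the bright ones, so that of the large subunit was near the latter. Whether the subunits differ in these shares was not tested. By array, the median deviation of the large-subunit genes minus that of the small-subunit genes ran from -0.04 through -0.0053 to 0.02 in WT and from -0.0026 through 0.02 to 0.07 in homozygous embryos. These ranges overlapped, and homozygous 2 was highest. By the more literal reading of names the distance between the medians was 0.02, since the small-subunit median then lay at -0.01. It was also 0.02 (0.0248) with only probe sets at or above the median, which leaves out 1 member.

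**Figure D4:**
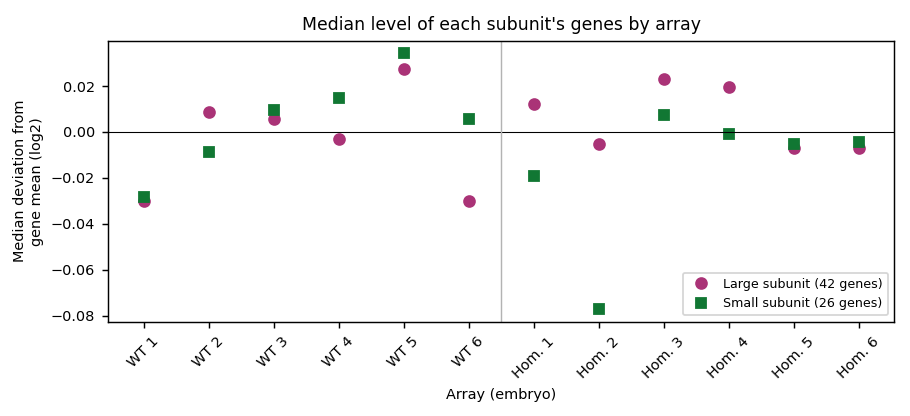
Median over genes of the deviation of log2 intensity from each gene's mean over 12 arrays (y axis), for the large-subunit (circles) and small-subunit (squares) genes in each embryo (x axis). Deviations stay between -0.08 and 0.03, with the small-subunit genes lowest in homozygous 2 and overlapping WT and homozygous values for both subunits.

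Small-subunit genes made up most of those that were lower at an unadjusted p under 0.05. Rps9, of the body of the subunit, ranged from 11.68 to 11.91 in WT and from 11.59 to 11.68 in homozygous embryos by its brightest probe set. The groups did not overlap but nearly met, with the lowest WT embryo at 11.6803 and the highest homozygous embryo at 11.679. The difference of -0.13 ± 0.036 did not pass (adjusted p = 0.138 in limma). A further probe set, with a mean of 11.15, passed at -0.14 ± 0.026 (0.0440), and the last stood at -0.12 with overlapping groups. That further probe set passed without WT 3 (0.0496) and without WT 1 and WT 2 together (0.0240) but, with any other single array left out, stood at 0.0501 to 0.107, and with the replicate block it stood at 0.136. Rps24, in which mutations cause the blood disorder Diamond-Blackfan anaemia, ranged from 10.67 to 10.88 in WT and from 10.50 to 10.68 in homozygous embryos, a difference of -0.16 ± 0.043. WT 1, at 10.88, and WT 2, at 10.80, were its highest embryos, and without them the difference was -0.11. Rps3, which helps to form the entry of the messenger RNA channel, stood at -0.09 ± 0.024, and Rps23, of the decoding centre, at -0.11 ± 0.032. In both, a few embryos of the groups overlapped. The dimmer of the 2 probe sets of Rps3 stood at -0.01, and their mean at -0.05 (adjusted p = 0.610 in limma). None of the 26 small-subunit genes passed by its brightest probe set in limma.

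Among the higher small-subunit genes, Rps25, which is needed for initiation at several internal ribosome entry sites, ranged from 10.9997 through 11.13 to 11.30 in WT and from 11.23 through 11.29 to 11.36 in homozygous embryos. WT 2 was the 1 WT embryo within the homozygous range. The difference was 0.16 ± 0.041 with all arrays (adjusted p = 0.118 in limma), and Rps25 passed without WT 2 (0.0352). Without WT 1 and WT 2 together it was 0.20 ± 0.032 and also passed (0.0108). Rps7 ranged from 11.68 to 11.86 in WT and from 11.82 to 11.95 in homozygous embryos, at 0.11 ± 0.032. Rps20 stood at 0.07 ± 0.029 (0.04 without WT 1 and WT 2) and Rps29 at 0.04 ± 0.017, in both cases with overlap. None of these passed with all arrays.

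Rpl5 and Rpl11 form, with 5S ribosomal RNA, the particle that binds Mdm2 when ribosome assembly fails. Rpl5 ranged from 12.53 to 12.74 in WT and from 12.58 to 12.71 in homozygous embryos, a difference of 0.01 ± 0.036 with a 95% confidence interval from -0.07 to 0.09. Rpl11 stood at 0.04 ± 0.037, with an interval from -0.04 to 0.12. Without WT 1 and WT 2 Rpl5 stood at -0.04 and Rpl11 at 0.07, and without WT 6 Rpl11 stood at 0.0083. With a single array left out, Rpl5 ran from -0.0105 to 0.03. Neither passed, and the sign of both turned with arrays centred on their medians (-0.03 and -0.00092). Rpl23, another protein that binds Mdm2, was read by 1 probe set and differed by 0.12 ± 0.047 (adjusted p = 0.249 in limma). Its WT 1 and WT 2 values, 9.68 and 9.67, lay below the other WT embryos (9.77 to 9.93), and without them the difference was 0.06. Of 13 listed p53 pathway genes 10 were measured, none passed, and Bax at 0.09 ± 0.030 had the smallest p.

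Grouped by position in the ribosome, Rplp2 was the only listed gene to pass. Of 7 measured genes at the exit of the nascent chain, none passed and the median difference was 0.0086, with Rpl22 at -0.12 ± 0.038 (-0.08 without WT 1 and WT 2) having the smallest p. Of 6 genes along the messenger RNA path, none passed and the median was -0.07, with 3 of them, Rps3, Rps28 and Rpsa, lower at an unadjusted p under 0.05. Rps28 stood at -0.13, and at -0.07 without WT 1 and WT 2. Of 5 genes of the decoding centre and P site, Rps25 was higher and Rps18 and Rps23 lower at that level. Of 14 measured genes in which mutations cause Diamond-Blackfan anaemia, none passed, 2 were higher and 2 lower at that level, and the median was 0.02, as over all genes. At that level stood 53.8% of the 26 small-subunit genes (38.5% lower), 36.8% of the members and 15.1% of all genes. No position group was tested against these shares. Rpl13a, which also serves in the silencing of inflammatory messenger RNAs, stood at 0.06 ± 0.028 with overlapping groups.

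The probe sets of a gene mostly gave the same sign. Of the 68 genes 53 had more than 1 probe set, and in 45 of the 53 all probe sets had the same sign. In the other 8, differences were small: 1 of them had any probe set at an unadjusted p under 0.05, and in none were there such probe sets in both directions. In all, 6 of the 249 probe sets of members passed, 3 higher (all of Rplp2) and 3 lower (2 of Rpl41 and 1 of Rps9). Over all probe sets, 0.226% passed as higher and 0.199% as lower. Rpl21, chosen after its values were seen, was read by 21 probe sets, all between 0.03 and 0.06. Agreement of this kind is not independent, since all probe sets of a gene read the same RNA on the same arrays. In addition, 14 member probe sets had values identical to another member probe set. RefSeq (GRCr8) also names 977 copies of the 68 genes, 764 of them pseudogenes, with at least 1 for every gene: 5 for Rplp2, 1 for Rpl41 and 17 for Rpl36. Values of genes with near-identical copies are uncertain, because probes may read the copies too.

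**Figure D5:**
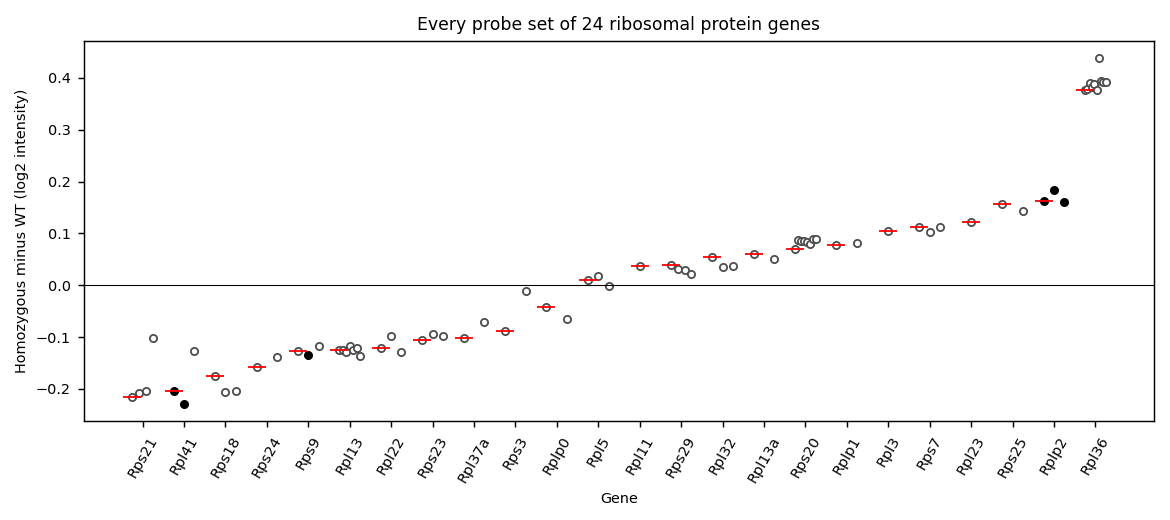
Difference in log2 intensity (homozygous minus WT, y axis) of every probe set of 24 ribosomal protein genes (x axis, ordered by difference), with a red bar at the brightest probe set of each gene and filled points for an adjusted p under 0.05. Probe sets of a gene lie close together in most genes, and the filled points belong to Rplp2, Rpl41 and Rps9.

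The spread between embryos differed among members. After Rpl36 the highest within-group SDs were those of Rps27 (0.155, the dim probe set), Rps10 (0.151), Rps15 (0.150) and Rps15a (0.137), genes chosen here for this spread. Rps10 ranged from 11.61 to 11.85 in WT and from 11.63 to 12.13 in homozygous embryos. Homozygous 1 and 2, at 11.64 and 11.63, lay with the WT embryos, and homozygous 3 to 6 read 11.86 to 12.13. The difference of 0.14 ± 0.075 did not pass, and the brightest values were read identically by 2 probe sets, while the other 4 gave 0.04 to 0.11.

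Close relatives outside the name rule gave few values. Fau, which encodes the small-subunit protein eS30 fused to a ubiquitin-like protein, stood at 0.04 ± 0.023. Rpl22l1, the paralog of Rpl22, stood at -0.17 ± 0.069 (adjusted p = 0.277 in limma), and at -0.11 without homozygous 2, its lowest embryo. Rps4y2, a paralog of Rps4x, stood at 0.15 ± 0.052 (0.208), and Rps4x at 0.02 ± 0.018. None of these passed.

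Among other genes of translation and ribosome production, 1 passed. Of 12 elongation and termination factor genes none passed (median 0.02), with Eef1d, a subunit of the exchange factor of elongation factor 1, at 0.10 ± 0.033. Of 16 other genes with TOP messenger RNAs none passed (median -0.0057), and 2 were higher and 2 lower at an unadjusted p under 0.05. Rack1, a scaffold on the small subunit, stood at 0.07 ± 0.023, and the initiation factor gene Eif3h at -0.07 ± 0.027 (-0.04 without WT 1 and WT 2). Of 53 ribosome assembly genes none passed, 10 were higher and 4 lower at an unadjusted p under 0.05, and the median was 0.0067. Over all genes 9.18% were higher and 5.93% lower at that level. Tsr3, an enzyme that modifies the small ribosomal RNA, stood at 0.18 ± 0.037, and Nhp2, of the H/ACA particles, at 0.13 ± 0.026 (adjusted p = 0.0516 and 0.0523 in limma). Of 12 genes of RNA polymerase I none passed, with Taf1d at 0.12 ± 0.044. Of 14 genes that control TOP messenger RNAs, 1 passed: Rheb, the GTPase that activates mTOR, fell by 0.20 ± 0.039 (0.0422), with all homozygous embryos below all WT embryos. With single arrays left out Rheb passed only without WT 3 (0.0298) and otherwise stood at 0.0575 to 0.100, with the replicate block it stood at 0.0783, without an intensity trend at 0.101 and with the covariate at 0.0721. In that list Tsc1, part of the complex that inhibits Rheb, stood at 0.08 ± 0.031 and did not pass.

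In tissue RNA, fewer cells of a type and less RNA per cell cannot be told apart. Some marker genes of cell types differed at an unadjusted p under 0.05, while the mean level of every list overlapped between genotypes. At that level stood 15.1% of all genes (9.18% higher and 5.93% lower). Of the 7 measured ganglionic eminence genes, 1 was higher and 1 lower at that level. Of 7 measured erythroid genes none passed and 2 were lower at an unadjusted p under 0.05, with a mean level from 10.11 to 10.79 in WT and from 10.06 to 10.32 in homozygous embryos. Of 5 pallial genes none passed and 3 were lower at that level, with a median difference of -0.25. Their mean level ran from 9.25 to 9.78 in WT and from 9.33 to 9.46 in homozygous embryos. Of 8 radial glia genes 1 was higher and 3 were lower at that level (10.96 to 11.09 in WT, 10.91 to 10.997 in homozygous embryos), and of 9 neuronal genes 1 was higher and 3 were lower at that level, with Nefl alone passing, at -0.42 ± 0.065 (mean level of the list 11.57 to 11.63 in WT, 11.44 to 11.59 in homozygous embryos). Of 8 endothelial genes 2 were higher at that level (8.55 to 8.71 in WT, 8.60 to 8.67 in homozygous embryos). Of 6 choroid plexus genes 2 were higher (6.47 to 6.58 in WT, 6.44 to 6.74 in homozygous embryos), and of 8 microglial and 7 meningeal genes none differed at that level. None of the choroid plexus genes was above the array median on all arrays. The part of these cells in the ribosomal protein differences was not tested.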

How the data were processed

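The authors deposited a log2 intensity for each probe set in each of 12 arrays, with the scale inferred from the range of values. The submitters' processing notes name RMA and Partek 6.4, without the order or settings of their steps. RMA usually aligns the distributions of arrays, which can remove a shift common to most genes, and short probes compress differences. The deposited arrays were not fully aligned. Their medians ran from 7.67 to 7.71 in WT and from 7.69 to 7.76 in homozygous embryos, and 64.8% of probe sets differed above 0. The source of this shift was not tested. Array number limited the precision. No probe set was removed.

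The platform annotation gave 1 gene symbol for 15310 of 29214 probe sets, several for 323 and none for 13581; 15279 matched the RefSeq table of GRCr8 by Entrez number and no symbol changed. All probe sets were fitted with limma 3.58.1 in R 4.3.3 by lmFit and trended eBayes. Genotype was the sole term, tests were 2-sided, and p-values were adjusted by Benjamini-Hochberg across the 29214 probe sets. The fit was tested on simulated data. Lists, subunits and single arrays were described without a test. Figures used matplotlib 3.10.9 in Python 3.11.15. The members and lists, and the choice to leave out WT 1 and WT 2 together, were made with earlier results of these data known.

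The genes named were the members with any probe set past an adjusted p of 0.05, the 10 of smallest p in each direction, Rplp0, Rplp1, Rplp2, Rpl5 and Rpl11, and from other lists the genes past the threshold and up to 2 of smallest p; any further gene is marked in the text or named with its list. Alternatives were a replicate block, other scalings, no intensity trend, a filter on dim probe sets, a covariate, array weights, other probe set and name rules, and leaving out arrays.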

Additional observations from a re-analysis of the deposited data

Results flagged for a closer look

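Each of the 68 genes, the median over the members and the difference between subunits was screened in both genotypes for an embryo far from its group, measured as the gap to its nearest neighbour over the range of the group. Of 140 groups of 6 embryos, 6 passed Dixon's 95% limit, about as many as chance gives (1 in 20 groups). Rpl31 was highest in homozygous 1, at a log2 intensity of 13.06 (next 13.01), and Rpl35 in homozygous 3, at 12.11 (next 12.04). Rps13 was lowest in homozygous 2, at 10.44 (next 10.55). WT 1 was lowest for Rpl7a, at 11.47 (next 11.54), and for Rps2, at 13.12 (next 13.23), and WT 2 was highest for Rps6, at 13.13 (next 13.08). None of these genes passed the test between genotypes.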

How the results depend on the processing

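The number of ribosomal protein genes past the threshold, 2 with all arrays, was 1 with the replicate block, 6 after median centring of arrays, 0 when the fit had no intensity trend (6 higher and 13 lower at an unadjusted p under 0.05 in limma), 6 with only probe sets at or above the median, 0 with the bright and dim difference as a covariate (7 higher and 16 lower at that level), 9 with array weights and 12 without WT 1 and WT 2 together. With 1 array left out it was 0 to 4: 2, 4 and 3 without WT 1, WT 2 and WT 3, and 0 without any other array. The number of all probe sets called moved too, from 124 to 18 with the block, 302 with centred arrays, 3 without a trend, 255 of 14607 with the filter, 6 with the covariate, 414 with weights and 4 to 200 with 1 array left out. The cause was not tested. The share of all genes at an unadjusted p under 0.05 was not counted without a trend or with the covariate. The members' median moved to -0.0312 with centred arrays, where the median of all probe sets was -0.0085, and otherwise by less than the SD between replicates. The distance between the subunits, 0.0462, fell to 0.0204 under the literal name rule, more than 1 SD, and to 0.0248 with only probe sets at or above the median. Of 839 values of 40 named genes and probe sets under alternatives, 736 kept their direction and side of the threshold, 54 lost and 40 gained a call, and 9 turned sign. Rpl5 turned to -0.0271 with centred arrays, -0.00096 after quantile normalization, -0.0250 with the covariate, -0.0140 with array weights and -0.0379 without WT 1 and WT 2 together. With 1 array left out it ran from -0.0105 to 0.0313, below 0 without WT 1, WT 2 (-0.0070) or homozygous 4 (-0.0022). Rpl11 turned to -0.00092 with centred arrays. The labels do not say whether same-numbered arrays of the groups were paired. Deviations of same-numbered arrays correlated with r between -0.08 and 0.26, and 2 of 6 WT arrays correlated best with their own number. So few correlations cannot settle whether a pairing exists.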
